A study of Homo sapiens with 4 samples.

Results

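GABAergic neurons of enteric ganglioids, 3-dimensional aggregates of enteric neurons and their precursors grown from the H9 human embryonic stem cell line, were examined by single-nucleus RNA sequencing. The members were the nuclei that the deposited annotation classes as enteric neurons and to which it gives a GABAergic identity, and they were set against enteric neurons annotated as other for that identity. There were 2377 GABAergic nuclei among 6557 enteric neurons, 14812 annotated nuclei and 25306 deposited nuclei. The 4 samples were 2 controls and 2 samples that received 2 µM PP121, a multi-target kinase inhibitor, in the medium from day 15 to day 20. All came from the same cell line, and the labels call the replicate number that of the differentiation. The annotation dated replicate 1 of both groups day 42 and replicate 2 day 38, so the number also marked the day. A sample name inside the annotation of both controls disagreed with the labels (control replicate 2 for replicate 1, and a control of stage 2 for replicate 2), and the labels were followed, so every value by control replicate or day rests on them.

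GABA is made from glutamate by the glutamate decarboxylases GAD1 and GAD2, loaded into synaptic vesicles by the transporter SLC32A1 and broken down by ABAT. In the brain and spinal cord, GABA is the main fast inhibitory transmitter together with glycine, and SLC32A1 loads both. In the gut, GABA is found in a small share of enteric neurons, which arise from the neural crest under RET and HAND2. In GRCh38, RefSeq places GAD1 on chromosome 2 at 170813210 to 170861151, GAD2 on chromosome 10 at 26216372 to 26304558 and SLC32A1 on chromosome 20 at 38724486 to 38729372.

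The GABAergic nuclei numbered 1032 and 329 in the control replicates 1 and 2, and 858 and 158 in the PP121 replicates 1 and 2. They held 9203025, 3119724, 6945272 and 1397934 UMIs (unique molecular identifiers, 1 per captured RNA molecule) in the same order. The other neurons numbered 1253, 905, 1029 and 757. A further 236 nuclei of the enteric neuron class were entered as non-neuronal in the columns of identity and subtype and belonged to neither group. The median GABAergic nucleus held 7287 to 8264 UMIs by sample, against 6496 to 7718 in the other neurons, and it was deeper in all 4 samples (mean difference 758.5 UMIs, exact sign-flip permutation p = 0.13, two-sided, the smallest that 4 pairs allow). The share of nuclei in G1 phase was also higher in all 4 samples (62.9% against 56.5% on average). Between any pair of libraries, 4 to 15 nucleus barcodes were shared.

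The identity and the UMIs of the same nuclei overlapped in part. The study filled in missing values of each nucleus by imputation before it gave transmitter identities, and the genes behind the GABAergic call are not given in the sources used here. A nucleus called GABAergic therefore need not hold a UMI of GAD1 or GAD2, and 24.7% to 29.3% of the GABAergic nuclei of a sample held neither. To compare nuclei at equal depth, each was thinned at random to 2000 UMIs. After thinning, a GAD1 or GAD2 UMI (called a GAD UMI from here) was found in 37.1% and 35.6% of the GABAergic nuclei of the control replicates and in 40.4% and 39.9% of those of the PP121 replicates. The other neurons reached 14.1% in control replicate 1, 3.99% in control replicate 2, 4.69% in PP121 replicate 1 and 1.99% in PP121 replicate 2. Mesenchymal nuclei, which should lack both genes, reached 1.11% (10 of 898, exact 95% interval 0.535% to 2.04%), and 0% to 2.5% by sample. Of all enteric neurons with a GAD UMI, 68.1% to 83.0% carried the GABAergic identity. The other neurons of control replicate 1 thus stood apart, and results that rest on that library are given with and without it where they moved.

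Because the identity was assigned from values of the same nuclei, differences between GABAergic and other neurons describe the deposited groups across the 4 samples and are no independent test. A second grouping used the GAD UMIs alone, without imputation: 1214 enteric neurons with a GAD UMI after thinning against 5322 without. Genes other than GAD1 and GAD2 were not used to form it. Of 2375 GABAergic nuclei thinned, 909 held a GAD UMI and the rest fell among the neurons without, so the 2 groupings differ in what they contrast. Counts were summed per sample and group, and both comparisons were fitted with edgeR's quasi-likelihood test with the sample as a block and Benjamini-Hochberg adjustment over all genes tested. Levels are given as CPM, a gene's UMIs per 1000000 UMIs of such a sum.

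The 3 markers were higher in GABAergic than in other neurons in every sample. In GABAergic neurons GAD1 was at 84.8 and 88.1 CPM in the control replicates 1 and 2 and at 104 and 116 CPM in the PP121 replicates 1 and 2, whereas the other neurons were at 10.3, 7.08, 6.99 and 6.56 CPM. GAD2 was at 160, 160, 212 and 145 CPM in GABAergic neurons and at 79.0, 19.1, 21.6 and 10.4 CPM in other neurons. SLC32A1 was at 20.6, 18.6, 17.6 and 20.0 CPM against 9.80, 2.83, 3.05 and 1.07 CPM. For none of the 3 did the groups overlap, and for each the other neurons of control replicate 1 were the highest among the other neurons. Outside the neurons, GAD2 lay between 0 and 18.1 CPM in the progenitor, mesenchymal, epithelial and unclassified clusters of the annotation.

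The glycine transporter SLC6A5 and the transcription factors PAX2, PAX8, LHX1 and TFAP2B were higher in GABAergic neurons, and the glutamate transporter SLC17A6 and LMX1B were lower. Of 18730 genes tested, 888 (4.74%) were higher and 629 (3.36%) lower in GABAergic than in other neurons at an adjusted p under 0.05, with GAD1, GAD2 and SLC32A1 left out. Samples of the groups did not overlap for 2.84% of genes that were higher and 5.44% that were lower, whether or not they passed the test. In the grouping by GAD UMI, 409 of 18199 genes (2.25%) were higher and 262 (1.44%) lower. Of those 409, 363 (88.8%) were also higher by deposited identity, which is 40.9% of the 888. Of the 262, 229 (87.4%) were also lower, which is 36.4% of the 629, and none passed in opposite directions. Both groupings use the same nuclei, so this overlap is a description. The counts by identity were 1558 without control replicate 1, 744 without control replicate 2 and 710 without PP121 replicate 1, and those by GAD UMI 609, 382 and 318. Among nuclei with no further transmitter identity, 62 of 9775 genes passed by identity.

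SLC6A5, the neuronal glycine transporter GLYT2 that fills glycinergic terminals, was among the genes with the largest rise in both groupings. It was at 625, 981, 1077 and 1144 CPM in GABAergic neurons of the control replicates 1 and 2 and the PP121 replicates 1 and 2, and at 235, 70.8, 90.9 and 48.2 CPM in other neurons. The groups did not overlap, and the difference was 3.41 ± 0.41 on the log2 scale (estimate ± SE, 4 samples), or 4.03 without control replicate 1. Neurons with a GAD UMI were at 617, 942, 1048 and 1115 CPM against 358, 239, 390.2 and 161 CPM in neurons without (log2 difference 1.77 ± 0.21, edgeR adjusted p = 2.66e-04). In single nuclei thinned to 2000 UMIs, a SLC6A5 UMI was found in 61.0%, 61.0%, 72.5% and 66.7% of neurons with a GAD UMI, in the order of samples above, against 35.5%, 19.6%, 33.9% and 13.8% of those without. Its share was higher beside a GAD UMI in 4 of 4 samples (mean 65.3% against 25.7%, exact sign-flip permutation p = 0.13, the smallest possible). Mesenchymal nuclei reached 2.45% over all samples (22 of 898), but 1.19% to 12.1% by sample. They numbered 40 and 33 in replicate 1 of control and PP121, and 405 and 420 in replicate 2, so the pooled share rests mostly on replicate 2. RefSeq places SLC6A5 on chromosome 11 at 20599608 to 20659285 of GRCh38.

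No glycine receptor gene passed the test. Of the 6 tested genes of a list of 7 for glycine transmission, SLC6A5 alone passed the test in both groupings. The glycine receptor subunit GLRA1 was at 18.6 to 22.4 CPM in GABAergic and at 17.5 to 28.5 CPM in other neurons (log2 difference 0.11 ± 0.14). GLRB, the subunit that tethers the receptor to the synapse, lay at 8.35 to 12.9 against 8.77 to 14.0 CPM, and GLRA2 at 35.8 to 60.4 against 51.2 to 77.9 CPM. The median log2 difference of the list was -0.01 by identity, the same as the median over all genes.

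**Figure D1:**
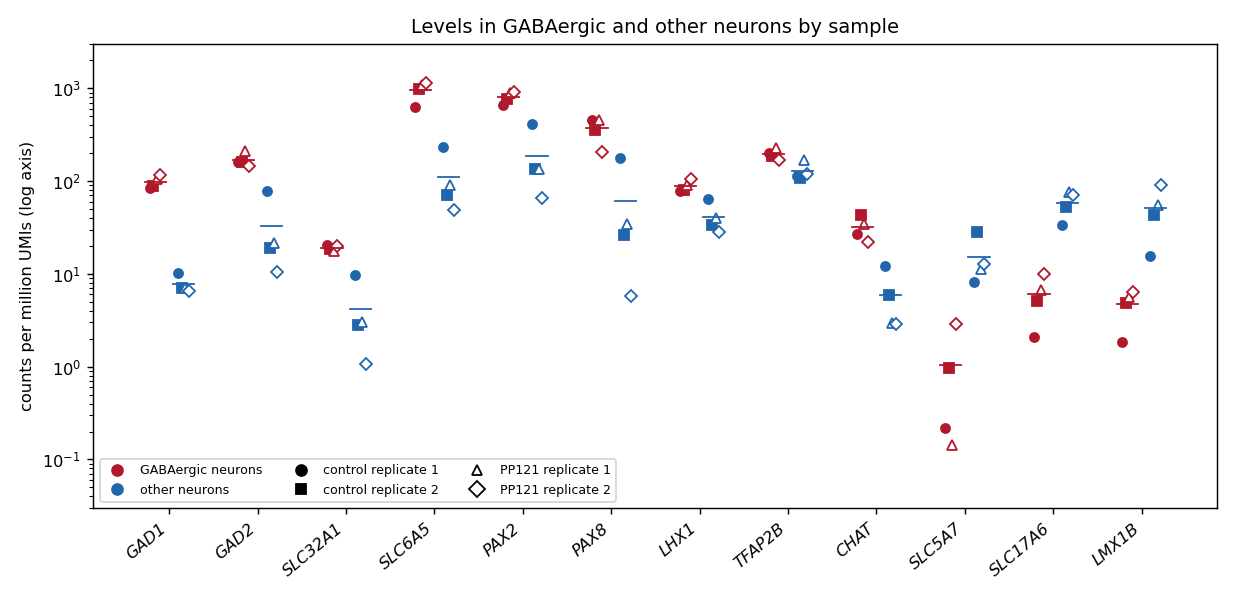
Level in CPM (log axis) of marker and transmitter genes in the summed nuclei of each sample, for GABAergic neurons and other neurons, with 1 point per sample and a line at the mean. SLC6A5, PAX2 and CHAT lie with GAD1, GAD2 and SLC32A1 on the side of the GABAergic neurons in all 4 samples, and SLC5A7, SLC17A6 and LMX1B on the side of the other neurons.

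Among transcription factors of GABAergic fate, a list of 29 of which 9 passed the filter on low counts, 4 were higher in both groupings, and these were PAX2, PAX8, LHX1 and TFAP2B. Over all genes tested, 4.74% were higher by identity and 2.25% by GAD UMI. PAX2 and PAX8 are paired-box factors that mark inhibitory neurons of the dorsal spinal cord and hindbrain. PAX2 was at 655, 768, 892 and 901 CPM in GABAergic neurons and at 408, 133, 134 and 65.8 CPM in other neurons (log2 difference 2.49 ± 0.38). PAX8 was at 456, 355, 455 and 208 CPM against 179, 26.3, 34.7 and 5.80 CPM (3.31 ± 0.44). By GAD UMI the log2 differences were 1.51 ± 0.21 for PAX2 (edgeR adjusted p = 8.09e-04) and 1.62 ± 0.19 for PAX8 (edgeR adjusted p = 2.40e-04). RefSeq places PAX2 on chromosome 10 at 100735396 to 100829944 and PAX8 on chromosome 2 at 113215997 to 113278921 of GRCh38. PAX8 overlaps its antisense gene PAX8-AS1, which moved with it, and since the use of strand in counting is not given in the sources used here the reads of the pair cannot be told apart.

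LHX1, a LIM homeobox factor of dorsal inhibitory interneurons and of cerebellar Purkinje cells, was at 77.9 to 104 CPM in GABAergic and at 28.5 to 63.4 CPM in other neurons (log2 difference 1.16 ± 0.19, and 0.95 ± 0.16 by GAD UMI). TFAP2B, an AP-2 factor of GABAergic lineages in the retina and cerebellum and also of the neural crest, was at 168 to 229 against 107 to 168 CPM (0.72 ± 0.08, and 0.57 ± 0.07 by GAD UMI). LHX5, the partner of LHX1 in spinal cord, did not pass (0.86 ± 0.27, edgeR adjusted p = 0.0871). GBX1, a factor of dorsal horn neurons, was at 44.8 to 67.2 CPM in GABAergic and 51.0 to 73.3 CPM in other neurons. PRDM13, which represses excitatory genes in precursors of dorsal inhibitory neurons, was lower by identity (2.61 ± 0.777 against 7.90 ± 2.49 CPM, SD, n = 4) and did not pass by GAD UMI (edgeR adjusted p = 0.287). The median log2 difference of the 9 tested factors was 0.72 by identity and 0.57 by GAD UMI, against -0.01 over all genes in both.

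Forebrain and midbrain factors of GABAergic fate were at or near 0. Over all GABAergic nuclei, DLX1 and DLX2 had 1 UMI each, and DLX5, DLX6 and LHX6 had 0, which allows up to 3 UMIs in all. GATA2 had 4 UMIs, and TAL1 and TAL2 had 2 each. GATA3 had 2 and 1 UMIs in the control replicates 1 and 2 and 7 and 16 in the PP121 replicates 1 and 2. The 16 UMIs, or 11.4 CPM, all came from 1 nucleus. These homeobox, GATA and bHLH factors specify GABAergic neurons of the forebrain, midbrain and ventral spinal cord. Of all 29 factors of GABAergic fate, 6 had 0 UMIs in the GABAergic nuclei and 1 had 0 in the other neurons. HOXB3, whose normal domain begins in the hindbrain, was at 97.7, 80.5, 107 and 80.1 CPM in GABAergic and at 69.0, 34.4, 41.6 and 58.2 CPM in other neurons (log2 difference 0.98 ± 0.15, and 0.76 ± 0.10 by GAD UMI with an edgeR adjusted p of 4.56e-04). It belongs to a list of 24 central nervous system and spinal cord factors that moved both ways. By identity, 16 were tested, and HOXB3, PAX2, LHX1 and FOXP2 were higher. SHOX2, PAX6, LHX9, LHX2, PAX7, OTX2 and IRX3 were lower (median log2 difference -0.09). By GAD UMI, 3 of 15 were higher and 2 lower. Over all genes tested, 4.74% were higher and 3.36% lower by identity, and 2.25% and 1.44% by GAD UMI. HOXB5, HOXB8 and HOXC8, HOX genes of more posterior levels, had 0 UMIs each in the GABAergic nuclei. No other member of that list was at 0 there, HOXA5 included, and 2 members were at 0 in the other neurons.

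Some factors of excitatory neurons were lower. Of a list of 18, 7 were tested, and LMX1B, TLX3 and PHOX2A passed as lower in both groupings while none passed as higher (median log2 difference -1.85 by identity and -0.61 by GAD UMI). The share of lower genes over all genes tested was 3.36% by identity and 1.44% by GAD UMI. LMX1B, which with TLX3 sets the glutamatergic fate in the dorsal horn, was at 1.85, 4.81, 5.62 and 6.44 CPM in GABAergic and at 15.4, 42.6, 55.2 and 89.6 CPM in other neurons (-3.21 ± 0.13, and -2.17 ± 0.18 by GAD UMI). SLC17A6, the vesicular glutamate transporter VGLUT2, was at 2.06, 5.13, 6.77 and 10.0 against 33.8, 53.0, 76.1 and 71.0 CPM, so that the groups did not overlap (-3.41 ± 0.15, and -2.77 ± 0.18 by GAD UMI with an edgeR adjusted p of 2.21e-06). After thinning, a SLC17A6 UMI was found in 0.55% of the GABAergic nuclei (13 of 2375), against 0.33% of mesenchymal nuclei (3 of 898) and 8.05% of other neurons.

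Genes that define the enteric lineage were scarce in the GABAergic nuclei. HAND2, a factor of neural crest derivatives in the gut, had 1 UMI over all GABAergic nuclei and 2 over all other neurons, and the GDNF receptor RET had 25 and 56. Of 10 tested genes of the list of 18, 3 passed as lower by identity, PHOX2A and the GDNF co-receptor GFRA1 among them, and none as higher. Over all genes tested, 3.36% were lower and 4.74% higher by identity. RET and HAND2 were thus near 0 in both groups of neurons, and the label of enteric neurons was kept as the annotation gives it.

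The genes with the largest differences included a synaptic vesicle protein, a cadherin and a calcium channel subunit. By GAD UMI, the genes with the largest rise were SLC6A5, KLHL14, PLD5, PAX8-AS1, DNAJC5G, PAX8, CDH18, SV2C, CDH18-AS1, MAST4, PAX2 and CHAT, and their log2 differences lay between 1.45 and 1.77. By identity the list kept SLC6A5, PLD5, PAX8, PAX8-AS1, SV2C and CDH18-AS1 and added SLC35F4, SPHKAP, CACNA2D3, CACNA2D3-AS1, PCP4 and LRTM1. SV2C, a synaptic vesicle protein, was at 121 to 157 CPM in GABAergic and at 6.72 to 33.3 CPM in other neurons. CACNA2D3, an auxiliary subunit of voltage-gated calcium channels, was at 848, 864, 857 and 1230.4 CPM against 311, 97.1, 75.9 and 98.9 CPM. PCP4, a calmodulin-binding protein abundant in Purkinje cells, was at 28.1 to 45.9 CPM against 3.66 to 7.40 CPM. CDH18, a cadherin, was at 916 to 1224 CPM against 107 to 277 CPM. CACNA2D3 and CDH18 overlap antisense genes that are on the same list, and their reads cannot be told apart either.

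At the lower end, the genes by GAD UMI included SLC17A6, NRN1, SHOX2, TAC1, LMX1B, ARPP21 and MAP7, with log2 differences from -2.77 to -1.71. SHOX, SHOX2, SLC17A6, LMX1B, EYA2, NRN1 and TAC1 were among the largest falls by identity. TAC1, the precursor of substance P and a peptide of excitatory enteric neurons, was at 0.869, 1.92, 5.04 and 3.58 CPM in GABAergic and at 7.09, 18.4, 22.6 and 44.0 CPM in other neurons. SHOX2, a homeobox factor of excitatory spinal interneurons, was at 0.543 to 3.31 against 7.71 to 38.8 CPM. Neither gene's groups overlapped.

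**Figure D2:**
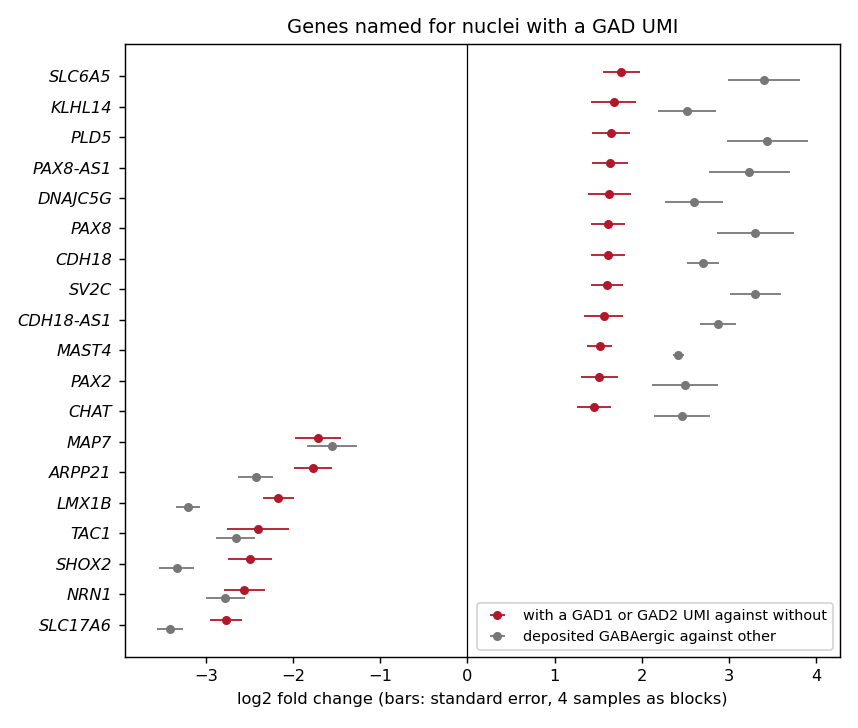
Log2 fold change with its standard error (4 samples as blocks) of genes named for neurons with a GAD UMI, shown for the grouping by GAD UMI and for the grouping by deposited identity. All 12 genes on the positive side and all 7 on the negative side keep their sign in both groupings, and all but MAP7 have a larger difference by identity.

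The gene that breaks down GABA was higher in both groupings, by less than the markers. ABAT, the GABA transaminase, was at 171, 164, 186 and 192 CPM in GABAergic and at 129, 111, 116 and 103 CPM in other neurons (log2 difference 0.71 ± 0.08, and 0.42 ± 0.07 by GAD UMI with an edgeR adjusted p of 0.00323). Among nuclei with no further transmitter identity, its difference was -0.025. By GAD UMI, SLC32A1, which was free of the rule there, was at 19.7, 16.9, 15.3 and 24.9 CPM against 13.4, 6.04, 7.94 and 2.63 CPM (1.21 ± 0.28, edgeR adjusted p = 0.0274).

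Most genes of GABA receptors did not pass. Of 19 GABA-A subunits, 10 were tested by identity and GABRG3 and GABRB2 were higher, where 4.74% of all genes tested were higher. GABRG3 was at 121, 68.0, 125 and 152 CPM in GABAergic and at 21.3, 16.3, 16.3 and 31.6 CPM in other neurons (2.54 ± 0.13, and 1.20 ± 0.16 by GAD UMI with an edgeR adjusted p of 4.06e-04). GABRB2 did not pass by GAD UMI. Of the GABA-B subunits and partners, KCTD16 was higher by identity and none by GAD UMI. None of 10 chloride cotransporters and scaffold genes passed in either grouping. GPHN, the gephyrin scaffold of inhibitory synapses, was at 1398 to 1619 CPM in GABAergic and 1311 to 1540.3 CPM in other neurons.

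Several genes of glutamate receptors and synaptic adhesion were higher. By identity, 7 of 19 tested genes of glutamate transmission rose and 4 fell, and by GAD UMI 6 rose and 2 fell, where over all genes 4.74% rose and 3.36% fell by identity and 2.25% and 1.44% by GAD UMI. Those that rose in both were GRIA1, GRIA2, GRIA3, GRIK3, GRIN2B and GRM7, which are receptor genes, and those that fell in both were SLC17A6 and the kainate receptor gene GRIK2. GRIK3 was at 407 to 545 CPM in GABAergic and 116 to 209 CPM in other neurons, and GRIK2 at 55.5 to 102 against 139.5 to 256 CPM. Of 16 synaptic adhesion genes, 7 were higher by identity and 5 by GAD UMI, and none were lower. NRXN3, a presynaptic neurexin, was at 6523, 8401, 10732 and 12581 CPM in GABAergic neurons and at 4065, 2597, 3363 and 2197 CPM in other neurons (1.72 ± 0.22, and 1.20 ± 0.16 by GAD UMI). Its postsynaptic partner NLGN1 was at 942 to 1409 against 622 to 854 CPM. Among 15 tested sodium and calcium channel genes, CACNA1D and SCN3A were higher and SCN9A lower in both groupings.

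The genes of acetylcholine transmission split in opposite directions. CHAT, which makes acetylcholine, was at 26.9, 43.0, 34.8 and 22.2 CPM in GABAergic and at 12.2, 5.92, 2.92 and 2.90 CPM in other neurons (2.46 ± 0.32, and 1.45 ± 0.19 by GAD UMI with an edgeR adjusted p of 4.73e-04). SLC5A7, the choline transporter that supplies CHAT in cholinergic terminals, was at 0.217, 0.962, 0.144 and 2.86 CPM, from 10 UMIs in all, against 8.23, 28.5, 11.3 and 12.7 CPM. SLC5A7 was lower in 4 of 4 samples by both groupings (-4.53 ± 0.39, and -2.26 ± 0.46 by GAD UMI with an edgeR adjusted p of 0.0118). Without control replicate 1 the second value was -1.87, with an edgeR adjusted p of 0.053. Of the remaining tested genes of this list, the muscarinic receptor CHRM2 was higher and the nicotinic subunit CHRNA7 lower in both groupings, although CHRM2 took a difference of -0.25 among nuclei with no further transmitter identity.

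Some markers of enteric inhibitory motor neurons and of interneurons were at or near 0, while others were present. VIP and PVALB had 0 UMIs in the GABAergic nuclei, and NPY had 1. The list of 27 neuropeptides and interneuron markers summed to 186 to 278 CPM in GABAergic and to 200 to 302 CPM in other neurons. Of its members, 5 had 0 UMIs in the GABAergic nuclei and 3 in the other neurons. SST lay at 5.45 to 11.1 CPM in GABAergic and 0.644 to 6.77 CPM in other neurons and did not pass (edgeR adjusted p = 0.0531). NOS1, which makes nitric oxide, was at 2.28, 4.81, 4.46 and 30.8 CPM in GABAergic neurons and at 6.25, 5.41, 9.02 and 4.43 CPM in other neurons. The value of PP121 replicate 2 came from 43 UMIs in 6 nuclei. By GAD UMI, NOS1 was lower (1.72 ± 1.38 against 6.88 ± 1.97 CPM, SD, n = 4, edgeR adjusted p = 0.0161), and this call was lost without control replicate 1.

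Markers of other cell types were low in both groups of neurons. The 16 progenitor and glial markers summed to 242 to 318 CPM in GABAergic neurons and to 322 to 486 CPM in other neurons, and none was at 0. NOTCH1, VIM and SOX2 were lower by identity, and NOTCH1, VIM and CENPF by GAD UMI, beside the higher share of G1 nuclei given above. The 12 mesenchymal markers summed to 35.6 to 81.4 CPM against 26.1 to 69.6 CPM, and the 8 epithelial markers to 13.6 to 18.3 against 10.8 to 15.1 CPM. Of the 8 mesenchymal markers tested, none passed by identity, and ACTA2, smooth muscle actin, was higher by GAD UMI (23.6, 17.6, 28.3 and 9.19 against 17.3, 9.58, 13.7 and 7.01 CPM, 0.79 ± 0.16). The part of these markers in the results was not tested. MAP2 and RBFOX3, general neuronal genes, were higher in both groupings by 0.21 to 0.58 on the log2 scale, while most of the 22 pan-neuronal and release genes did not pass (19 by identity, 18 by GAD UMI).

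SV2C, SLC35F4 and PLD5 led the rises against glutamatergic neurons, and SLC17A6 and EYA2 were among the largest falls. GABAergic neurons without the glutamatergic identity were compared with glutamatergic neurons without the GABAergic identity, and 1301 of 16827 genes (7.73%) were higher and 1194 (7.1%) lower. SV2C was at 141, 139.6, 168 and 154 CPM against 12.6, 6.45, 7.68 and 7.28 CPM (4.24 ± 0.16). SLC35F4, a solute carrier of unassigned substrate, was at 964 to 1208 against 42.5 to 102 CPM. EBF2, a helix-loop-helix factor, was at 2.14, 3.51, 6.71 and 22.4 CPM against 40.5, 74.4, 92.1 and 101 CPM, and LMO3 at 1.32 to 2.99 against 18.7 to 22.1 CPM. The peptide gene SST (7.02 to 12.0 against 0.860 to 5.64 CPM, 1.74 ± 0.43) and NXPH1 (1.28 ± 0.23) were higher here. Of 15 tested synaptic adhesion genes, 10 were higher and none lower. These groups rest on the deposited identities too and describe them.

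Most GABAergic nuclei carried a further transmitter identity in the annotation. A share of 12.1% and 6.69% of them in the control replicates and 3.61% and 4.43% in the PP121 replicates carried none. A cholinergic identity was given to 53.1%, 61.1%, 67.5% and 41.8% of GABAergic nuclei and to 17.6%, 5.64%, 4.66% and 3.57% of other neurons, a mean difference of 48.0 percentage points. A serotonergic identity was also more frequent (37.2% against 20.0% on average), and glutamatergic (27.5% against 50.7%) and catecholaminergic (24.7% against 38.5%) identities were less frequent, each in 4 of 4 samples. The nitrergic identity differed in no single direction (16.3% against 17.1%, exact sign-flip permutation p = 0.875). For each of the other 4 identities the exact sign-flip permutation p was 0.13, the smallest that 4 samples allow, and 0.156 after Benjamini-Hochberg adjustment over 5 identities. These identities rest on imputed values of the same nuclei. In UMIs, CHAT was detected in 5.68% of GABAergic nuclei thinned to 2000 UMIs (135 of 2375), in 1.32% of other neurons, and in 0 of 898 mesenchymal nuclei, which allows a share of up to 0.41% (exact 95% interval). TPH2, which makes serotonin in neurons, was found in 0.34% of GABAergic nuclei (8 of 2375), 0.53% of other neurons and 0.22% of mesenchymal nuclei, so that its UMIs did not show the higher share of the serotonergic identity. TH, the first enzyme of catecholamine synthesis, was found in 1.31% of GABAergic nuclei and 2.32% of other neurons.

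**Figure D3:**
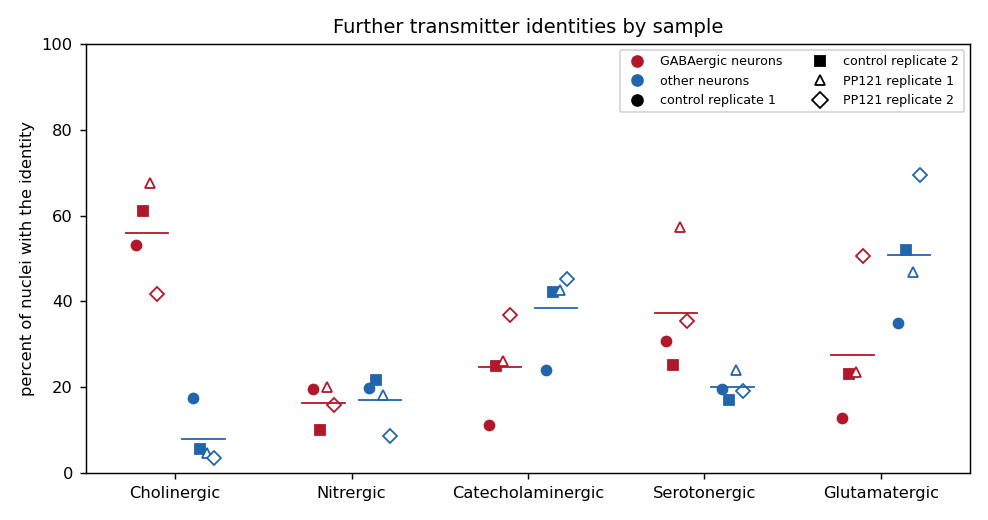
Percent of nuclei that also carry each of 5 other transmitter identities, by sample, in GABAergic and other neurons, with 1 point per sample and a line at the mean. The cholinergic points of GABAergic neurons (41.8% to 67.5%) lie above all those of other neurons (3.57% to 17.6%).

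The GABAergic identity covered most nuclei of some deposited neuron subtypes, part of others and few of the rest. The names of subtypes differ between control and PP121 samples and were not matched. In the controls it covered 87.1% and 96.2% of subtype EN 3 and 88.9% and 86.8% of EN 5. It covered 41.5% of EN 7 in control replicate 1 (105 of 253 nuclei) and 9 of 9 nuclei in control replicate 2. In the PP121 samples it covered 98.9% and 100.0% of EN C, 98.4% and 100.0% of EN E, and 90 of 99 nuclei and 1 of 1 nucleus of EN G. Subtypes covered in part held many of the GABAergic nuclei too. The identity was given to 34.4% and 19.1% of EN 1 (188 and 73 nuclei) and 28.6% and 36.8% of EN 2 (108 and 63 nuclei) in the controls, and to 27.3% and 23.7% of EN A (109 and 54 nuclei) and 59.8% and 29.4% of EN B (208 and 35 nuclei) in the PP121 samples. It covered 5.56% and 5.81% of EN 6. In EN 4 and EN 8 of the controls and in EN D, EN F, EN H and EN I of the PP121 samples it covered at most 4.04% in any sample. Since clusters were formed on the same genes, differences between subtypes are given as levels only.

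GABAergic nuclei of these subtypes differed in the genes they held. In EN 3, SLC6A5 was at 858 and 1337 CPM, PAX2 at 913 and 1096 CPM and CHAT at 48.6 and 74.3 CPM in the control replicates 1 and 2. In EN 5, TFAP2B was at 477 and 423 CPM while PAX2 was at 238 and 255 CPM and CHAT at 7.06 and 4.29 CPM. In EN 7 of control replicate 1, GAD2 was at 247 CPM, PAX2 at 1000.3 CPM and TFAP2B at 23.6 CPM. In the PP121 samples, EN C held SLC6A5 at 1416 and 1465 CPM and CHAT at 64.1 and 76.9 CPM, and EN E held TFAP2B at 513 and 187 CPM with PAX2 at 249 and 356 CPM. EN G of PP121 replicate 1 held GAD2 at 263 CPM, PAX2 at 1365 CPM and TFAP2B at 25.5 CPM. NOS1 in EN E of PP121 replicate 2 reached 137 CPM, a subtype of 29 nuclei there, with 38 of the sample's 43 UMIs.

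**Figure D4:**
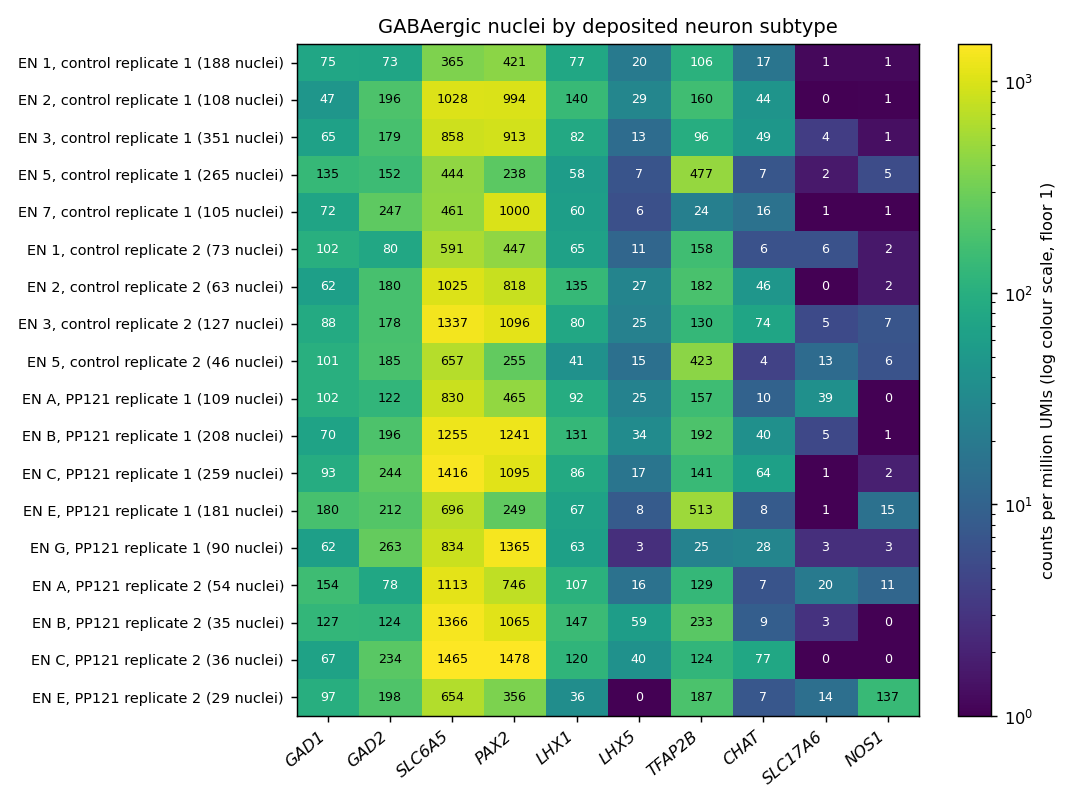
Level in CPM (log colour scale with a floor of 1) of marker genes in the GABAergic nuclei of each deposited neuron subtype with at least 20 of them, by sample. PAX2 is lowest in EN 5 and EN E of each sample, TFAP2B is highest in EN 5 of both controls and EN E of PP121 replicate 1, and TFAP2B is low in EN 7 of control replicate 1 and EN G of PP121 replicate 1.

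PP121 samples were set beside controls to compare the makeup of treated and untreated ganglioids. The share of GABAergic neurons differed by less than the spread within each group, and that spread was also the difference between days. It was 44.9% of enteric neurons (exact 95% interval 42.8% to 46.9%) in control replicate 1, 26.3% (23.9% to 28.9%) in control replicate 2, 42.3% (40.1% to 44.4%) in PP121 replicate 1 and 16.2% (13.9% to 18.7%) in PP121 replicate 2. The group means were 35.6% ± 13.1 and 29.2% ± 18.4 (SD, n = 2), a difference of -6.36 percentage points (exact permutation p = 0.667, where 2 against 2 samples cannot go below 0.33). Within days, the difference was -2.58 points at day 42, where the intervals overlap, and -10.1 points at day 38, where they do not. These shares count the nuclei entered as non-neuronal, which numbered 16 and 16 in the control replicates 1 and 2 and 143 and 61 in the PP121 replicates. Among nuclei with a neuron subtype only, the difference was 0.30 points at day 42 (45.2% in control, 45.5% in PP121) and -9.39 points at day 38. Both samples of day 42 were above both of day 38 (means 43.6% and 21.3%), and day and differentiation cannot be told apart. The intervals cover counting error only.

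The share of neurons with a GAD UMI gave the same order of samples. After thinning it was 24.5% and 12.3% in the control and 20.7% and 8.32% in the PP121 replicates, a difference of -3.93 points (exact permutation p = 0.667), with -3.83 at day 42 and -4.03 at day 38. On both days the exact 95% intervals of control and PP121 did not overlap (22.7% to 26.3% against 18.9% to 22.5%, and 10.6% to 14.3% against 6.66% to 10.2%), and these cover counting error only. Without thinning the share was 49.2%, 28.1%, 40.5% and 20.1%. With nuclei thinned to 1000 UMIs instead, the difference at day 42 was -0.87 points. The intervals of control and PP121 then overlapped on that day (11.7% to 14.5% against 10.8% to 13.7%). At day 38 the difference was -3.01 points, and the intervals stayed apart (6.12% to 9.12% against 3.29% to 6.01%). The separation of intervals at day 42 thus depended on the depth of thinning.

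**Figure D5:**
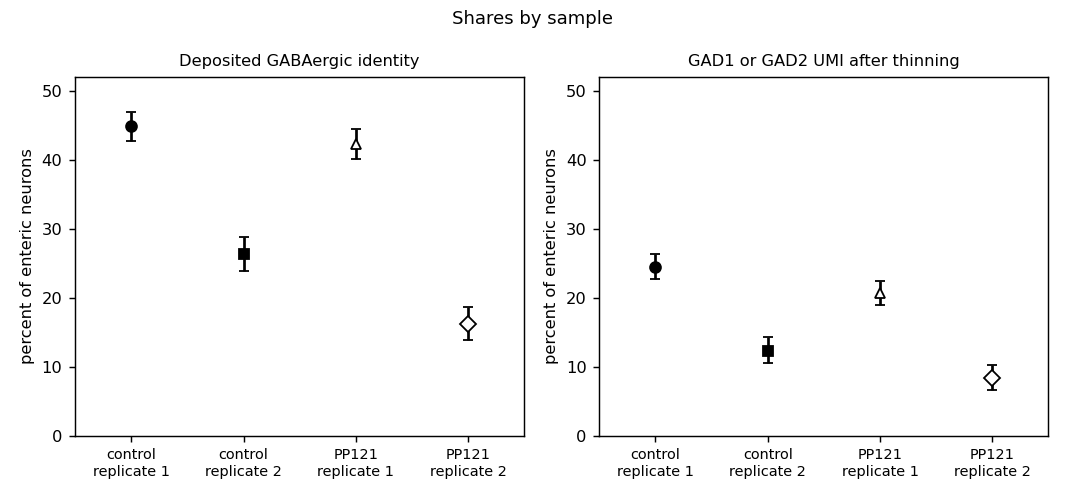
Percent of enteric neurons with the GABAergic identity (left) and, after thinning to 2000 UMIs, with a GAD1 or GAD2 UMI (right), by sample, with exact 95% intervals as bars. In both panels the samples of replicate 1 (day 42) are above those of replicate 2 (day 38) in control and PP121.

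Within GABAergic neurons, no gene separated PP121 from control at an adjusted p under 0.05 without a block (0 of 17387, 0.0% in either direction). By edgeR, 1645 genes had an unadjusted p under 0.05, and DESeq2 called 15. With 2 samples a group, 42.8% of the genes tested had groups that did not overlap. The genes with the smallest p were MT-ATP6 (38.8 and 41.3 CPM in control, 10.2 and 12.2 CPM in PP121), PRKCQ (81.4 and 73.1 against 150.2 and 162 CPM) and AL008633.1 (15.6 and 13.5 against 37.7 and 57.2 CPM). MT-ATP6 had an edgeR adjusted p of 0.239, and 1 nucleus held 61 of its 129 UMIs in control replicate 2, where the level without it was 21.9 CPM. When the replicate number was added as a block, the count rose to 734, with 477 genes (2.74%) higher in PP121 and 257 (1.48%) lower. In neurons with a GAD UMI, 0 genes passed without the block by edgeR, with 1078 at an unadjusted p under 0.05, and 220 passed with it.

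The following values hold in the fit with the replicate block. With 4 sums for a replicate and a treatment term, that fit has little left from which to estimate the spread between samples. DESeq2 with the same block called 101 genes. SLC6A5 was higher in PP121 within both days, by 0.58 ± 0.12 on the log2 scale (edgeR adjusted p = 0.0102), and in neurons with a GAD UMI by 0.58 ± 0.14 (edgeR adjusted p = 0.0452). PAX2 was higher by 0.41 ± 0.11 (edgeR adjusted p = 0.0341), but did not pass in neurons with a GAD UMI (edgeR adjusted p = 0.330). GAD1 was at 84.8 and 88.1 CPM in control and 104 and 116 CPM in PP121 and did not pass (0.41 ± 0.13, edgeR adjusted p = 0.0799), and neither did GAD2 or SLC32A1. None of the 8 tested genes of GABA synthesis, transport and breakdown and none of 9 GABA-A subunits passed.

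Of the genes with the largest block-fit rise in PP121, DPYD, the enzyme that breaks down pyrimidines, was at 84.5 and 105 CPM in control and 194 and 318 CPM in PP121 (1.45 ± 0.13). It overlaps DPYD-AS1 (27.6 and 44.2 against 81.2 and 109 CPM), whose reads cannot be told apart from it. SORCS1, a sorting receptor of neurons, was at 41.2 and 55.5 against 73.7 and 192 CPM, of which the last was 105 CPM without 1 nucleus that held 124 of 268 UMIs. MYO1E, a membrane-linked myosin, was at 15.9 and 27.6 against 47.4 and 49.4 CPM. RELN, the extracellular protein reelin, was at 3.91 and 7.69 against 13.1 and 33.6 CPM, but 20 of the 47 UMIs of PP121 replicate 2 came from 1 nucleus. EGFR, a growth factor receptor, was at 4.13 and 5.77 against 8.64 and 25.0 CPM, with 16 of 35 UMIs of PP121 replicate 2 in 1 nucleus. Of the 8 genes with the largest fall, 4 were mitochondrial transcripts, MT-ND3, MT-ATP6, MT-CYB and MT-ND4, which lie outside the nucleus. MT-CYB was at 26.2 and 32.7 CPM in control and 7.92 and 14.3 CPM in PP121. In control replicate 2, 1 nucleus held 41 of 102 UMIs of MT-CYB, 77 of 137 of MT-ND4 and 28 of 68 of MT-ND3, and without it their levels were 19.6, 19.3 and 12.9 CPM, still above both PP121 samples. The median GABAergic nucleus held 0 percent mitochondrial UMIs in every sample. Of the 20 genes named for this fit, 19 kept their sign and 14 passed in neurons with a GAD UMI. Those 20 were named for large differences, and over all calls of the fit fewer passed there. They were 154 of the 477 higher genes and 48 of the 257 lower ones. Many nuclei are shared by the 2 fits.

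No gene passed the test of whether the PP121 difference in GABAergic neurons differs from that in other neurons. The interaction passed for 0 of 19974 genes (0.0% in either direction) by edgeR, with 789 at an unadjusted p under 0.05, and DESeq2 also called 0, with 189 unadjusted. A p that misses the threshold does not show that the responses were alike. The genes with the smallest p were KCNIP4, GPC5 and LINC01982, each with an edgeR adjusted p of 0.328.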

How the data were processed

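Nuclei were profiled with 10x Genomics 3′ v3.1 libraries in 2 control and 2 PP121 samples. The authors deposited UMI counts per gene and nucleus, with counts not normalized, and an annotation per nucleus that includes the percent of mitochondrial and ribosomal UMIs. Per the labels, Cell Ranger, Seurat 4.0.4 and GRCh38 were used, while the study's methods name kallisto and bustools. The tool behind the matrices, the use of introns and the use of strand were taken as open, and identities followed imputation with ALRA. Gene symbols came from the files, and coordinates from RefSeq.

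Counts were summed per sample and group and fitted with edgeR 4.0.16 (R 4.3.3, TMM, filterByExpr, glmQLFit and glmQLFTest, two-sided, adjusted p under 0.05), with DESeq2 1.42.0 as an alternative. Permutation tests and thinning used scipy 1.17.1 and numpy 2.4.6 with a fixed seed. Sums held 1397934 to 9203025 UMIs in GABAergic and 6550864 to 9595257 in other neurons. Labels give the replicate number as that of the differentiation, and the dates follow the number, so block values are given where calls changed. That same-numbered control and PP121 samples share a differentiation rests on these labels alone. Deviations of same-numbered GABAergic sums had a correlation of 0.244 over 17387 genes. With 2 samples a group, swapping the numbers within a group only flips its sign, so it cannot test the pairing. No doublet caller was run, and leaving out nuclei over 20000 UMIs was an alternative. The fits were tested on simulated counts. There the PP121 fit without a block called 2 of 50 genes changed 1.5-fold, 21 of 50 changed 2-fold, 48 of 50 changed 4-fold and 17 of 50 changed 0.5-fold. It thus missed most changes of 1.5-fold and many of 2-fold. Named genes were the 12 largest rises and 8 largest falls per comparison past the threshold, with a mean of at least 10 CPM, one sign in all samples (for PP121, both samples of a treatment above both of the other) and no clone-based name, or the 3 smallest p-values where none passed. Members of 21 lists (311 genes) were named besides, mostly those with many counts or passing the test, so some were chosen after their values were seen. The members and lists were chosen with earlier results of these data known. Some of the genes so named are not reported here.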

Additional observations from a re-analysis of the deposited data

Results flagged for a closer look

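The nitrergic identity was the only one of 5 whose difference between GABAergic and other neurons took opposite signs by treatment, with every sample of a treatment on one side. It was -0.139 and -11.7 percentage points in control replicates 1 and 2 and 1.76 and 7.10 points in PP121 replicates 1 and 2. The difference between treatments was not tested, and with 2 samples each it rests mostly on replicate 2. NOS1 levels in GABAergic neurons of PP121 replicate 2 came from 6 nuclei.

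GAD UMIs were also found in nuclei outside the comparisons. Of nuclei of the enteric neuron class entered as non-neuronal for identity, and with at least 2000 UMIs, 11.1% (26 of 235, exact 95% interval 7.36% to 15.8%) held a GAD1 or GAD2 UMI after thinning. Of nuclei without an annotated class, 8.47% (128 of 1511, exact 95% interval 7.12% to 9.99%) did, against 1.11% of mesenchymal nuclei.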

How the results depend on the processing

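Without the filter on low counts, 2391 genes passed by identity, 1141 by GAD UMI, 391 for PP121 and 157 for the interaction. By identity, G1 nuclei gave 1000 genes, nuclei thinned to 2000 UMIs 879, and nuclei with no other identity 62, of 9775 tested. In those last nuclei ABAT (-0.025), CHRM2 (-0.25), CNTNAP5 (-0.21) and GRIA4 (-0.16) took a negative log2 difference, and by GAD UMI CENPF took a positive one (0.13) in G1 nuclei, a setting chosen after seeing the data. Leaving out each sample gave 710 to 1558 genes by identity (744 without control replicate 2 and 710 without PP121 replicate 1), 318 to 753 by GAD UMI (382 and 318 without the same samples), and 1365 to 2306 against glutamatergic neurons (1365 without control replicate 2). For PP121 against control it gave 7 to 759 genes (7 without control replicate 1, 42 without control replicate 2, 759 without PP121 replicate 1 and 115 without PP121 replicate 2), where a lone sample is assumed to vary like the rest. PP121 calls numbered 15 with DESeq2, 734 with the replicate block, and, as settings added after seeing the data, 220 with the block in neurons with a GAD UMI and 101 with DESeq2 and the block. The difference in the share of GABAergic neurons ranged from -19.4 to 6.68 points over left-out samples and turned positive without control replicate 1 (2.91) or PP121 replicate 2 (6.68). That of neurons with a GAD UMI ranged from -10.1 to 2.23 and turned positive without the same samples (2.13 and 2.23). Of 797 gene values by identity, 658 kept their call and direction, 135 lost the call and 4 turned. Of 622 by GAD UMI, 550 kept both, 71 lost the call and 1 turned. Of 653 against glutamatergic neurons, 585 kept both and 68 lost the call. Apart from the settings named, the cause was not tested. For the shares, the replicate block gave differences within each replicate number only, with no test. With 158 GABAergic nuclei, PP121 replicate 2 limits the depth of the PP121 comparison.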
